A study of Homo sapiens with 60 samples.

Results

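HepG2 is a human cell line from a hepatocellular carcinoma that keeps many functions of liver parenchymal cells, and its RNA was sequenced here after 24 h with a plant extract or with solvent. The comparison described is that of the lowest dose, 20 µg/mL, of 7 ethanol (70%) extracts against the vehicle, dimethyl sulfoxide (DMSO). It uses 21 of the 60 libraries that were fitted together: 3 vehicle libraries, 2 each of Angelicae Gigantis Radix (Angelica), Paeoniae Radix (Paeonia) and the multi-herb formula Sagunja-tang, and 3 each of Cnidii Rhizoma (Cnidium), Rehmanniae Radix Preparata (Rehmannia), Astragali Radix (Astragalus) and Cinnamomi Cortex (Cinnamon). The difference is the mean of the 7 group means minus the vehicle mean, so that each extract weighs the same. It is named the shared difference below, although a gene can pass on this mean when only some of the extracts moved. Genes that passed in each of the 7 extracts are counted apart. The labels give the vehicle as 0.1% DMSO while the series text gives 2%, and the labels of the extract samples name no solvent. The series text also describes lower doses for extracts with a 20% inhibitory concentration under 500 µg/mL, whereas the labels give the same 3 doses for all 7. The titles of all samples, vehicle and extract, carry the same batch label (BatchD). All vehicle libraries carry a sample code prefix that no extract library has, so that prefix and treatment with an extract cannot be told apart. Among the extracts, Angelica and Paeonia have prefix 11, Cnidium and Rehmannia 12, Astragalus and Cinnamon 13, and Sagunja-tang 14. Nothing in the labels says that replicates came from separate cultures, and p-values then measure only the spread between these libraries.

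Summed counts ran from 26383858 to 31017837 in the vehicle libraries and from 21668793 to 34477931 in the 18 low-dose libraries. The hepatocyte lineage markers, led by ALB, AFP and SERPINA1, summed to 60129 to 60887 CPM (TMM-scaled counts relative to library size) in vehicle and 59828 to 66979 CPM at the low dose. Of 5 fibroblast markers, 4 stayed under 0.5 CPM in every library (COL1A2, COL3A1, DCN and LUM), and the list summed to 0.112 to 0.493 CPM in vehicle and 0.160 to 0.672 CPM in the extracts. Endothelial CDH5 and KDR, and leukocyte PTPRC and CD163, were also under 0.5 CPM throughout, although other members gave the macrophage and leukocyte list 1294 to 1482 CPM in vehicle and 1292 to 1550 CPM at the low dose. Endothelial markers summed to 2.46 to 3.58 CPM and 2.04 to 3.22 CPM, stellate markers to 70.2 to 74.1 CPM and 65.3 to 78.7 CPM, and cholangiocyte markers to 201 to 212 CPM and 200 to 249 CPM. The part of other cell types in the results was not tested. Replicate 1 of Rehmannia stood apart from its partners and had the lowest share of mitochondrially encoded counts (11.0%), and without it the mitochondrially encoded list moved from 6 to 10 called members. Replicate 1 of Astragalus and of Cinnamon, both of prefix 13, moved together in some genes. In replicate order, TUBB1 read 4.93, 11.8 and 9.38 CPM in Astragalus and 6.20, 12.5 and 11.6 CPM in Cinnamon. HSPA1B read 167, 122 and 121 CPM and then 160, 121 and 123 CPM. Other genes did not part this way, such as BHLHE40 (68.0, 70.6 and 64.5 CPM, then 64.7, 66.8 and 62.4 CPM). These genes were picked after their values were seen.

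Cells answer shortage of oxygen, unfolded protein in the cytosol and unfolded protein in the endoplasmic reticulum (ER) through separate transcription factors that bind short promoter elements. Hypoxia-inducible factors bind the hypoxia response element and raise glycolytic enzymes, angiogenic factors and their own inhibitors. Heat shock factor 1 binds the heat shock element and raises cytosolic chaperones, and ATF6 binds the ER stress response element upstream of ER chaperone genes. All of these programmes are active in liver cells, which secrete large amounts of protein and adjust glucose output to oxygen and hormones.

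Promoters of 4 genes to which the results below return are printed, because each holds the core element of its programme in the window shown; the other PFKFB3 window (chr10:6144671-6144920) has no match. They are the 250 bases before the start site in RefSeq (GRCh38.p14), on the gene's strand, with matches in capitals. The motifs searched on both strands were ACGTG for the hypoxia response element core, GAANNTTC for the heat shock element and, for the ER stress response element, CCAAT and CCACG with 9 bases of any kind between them.
CA9 (chr9:35673678-35673927, plus strand): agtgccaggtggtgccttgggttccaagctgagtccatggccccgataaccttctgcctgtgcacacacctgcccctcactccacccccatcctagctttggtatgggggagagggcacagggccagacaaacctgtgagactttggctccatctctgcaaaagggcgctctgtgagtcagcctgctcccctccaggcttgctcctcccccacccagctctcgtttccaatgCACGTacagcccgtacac
PFKFB3, the downstream of 2 windows (chr10:6202682-6202931, plus strand): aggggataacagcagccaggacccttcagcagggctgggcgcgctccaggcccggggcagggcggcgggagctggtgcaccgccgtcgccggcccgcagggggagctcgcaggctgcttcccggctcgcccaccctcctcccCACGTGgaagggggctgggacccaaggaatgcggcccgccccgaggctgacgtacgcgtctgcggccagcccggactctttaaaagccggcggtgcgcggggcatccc
HSPA1A (chr6:31815293-31815542, plus strand): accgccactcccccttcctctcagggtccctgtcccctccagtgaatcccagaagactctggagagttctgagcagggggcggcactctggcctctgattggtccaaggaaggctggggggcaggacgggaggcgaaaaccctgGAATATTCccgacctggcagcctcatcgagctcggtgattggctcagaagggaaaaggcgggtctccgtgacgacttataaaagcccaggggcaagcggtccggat
HSPA5 (chr9:125241344-125241593, minus strand): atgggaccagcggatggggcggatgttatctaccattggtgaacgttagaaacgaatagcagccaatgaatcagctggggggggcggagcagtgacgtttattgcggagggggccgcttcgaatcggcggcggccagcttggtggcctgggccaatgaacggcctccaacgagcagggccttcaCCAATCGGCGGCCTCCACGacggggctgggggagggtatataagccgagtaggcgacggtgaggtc

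The hypoxia core was found in 14 of the 22 hypoxia-list genes with a window (63.6%), against 21.7% of all 27305 genes with one. The heat shock element was found in 10 of 18 cytosolic chaperone-list genes (55.6%), against 7.05% of all genes, and the ER element in 7 of 21 ER-list genes (33.3%), against 0.0916%. The lists were written as known members of these programmes, so the shares describe the lists and not these libraries, and a match is a stretch of letters and not an observed binding site.

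The shared difference was broad and small for most genes, with a few genes at 2-fold or more. By edgeR's quasi-likelihood test with Benjamini-Hochberg adjustment, 5392 of 16692 genes (32.3%) had an adjusted p under 0.05, which is what "called" means below. Of these, 2594 were higher (15.5% of the genes tested) and 2798 lower (16.8%). The median log2 difference over all genes was −0.01, the median size among called genes was 0.24, and the 5th and 95th percentiles over all genes were −0.52 and 0.42. A difference of at least 2-fold was found for 67 genes higher (0.401%) and 125 lower (0.749%). All 18 low-dose libraries lay above all 3 vehicle libraries for 997 genes (5.97%) and below them for 960 (5.75%). Taken extract by extract, 449 genes (2.69%) were called higher and 329 (1.97%) lower in each of the 7. These 7 comparisons share the vehicle libraries, so a deviation of those 3 libraries enters all of them. The number called was 4594 for Angelica (27.5%), 3317 for Paeonia (19.9%), 3313 for Rehmannia (19.8%), 3047 for Cnidium (18.3%), 2198 for Astragalus (13.2%), 2184 for Sagunja-tang (13.1%) and 1805 for Cinnamon (10.8%). Without replicate 2 of vehicle the shared count was 3410, with 206 higher and 149 lower in each of the 7 extracts.

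PFKFB3, the kinase-phosphatase that raises the main activator of glycolysis, had the largest rise of any protein-coding gene that met the naming rule, at 3.60-fold. It stood at 2.33, 2.78 and 1.83 CPM in the vehicle libraries and at 6.06 (lowest), 8.62 (median) and 13.2 CPM (highest) at the low dose, a log2 difference of 1.85 ± 0.18 (SE, adjusted p = 4.51e-10). The groups did not overlap, and the 7 extracts ranged from 1.57 to 2.18. CA9, a carbonic anhydrase that regulates pH in oxygen-poor cells, read 2.02, 2.42 and 3.03 CPM in vehicle and 3.23, 5.33 and 7.06 CPM (lowest, median and highest) with extract. Its lowest extract library was just above the highest vehicle library, and the log2 difference was 1.02 ± 0.17 (adjusted p = 1.23e-05). NDRG1, a stress-responsive growth regulator, went from 32.6, 36.7 and 41.3 CPM to 42.1, 74.0 and 89.5 CPM (0.96 ± 0.16). Its lowest extract libraries, replicate 1 of Astragalus (42.1 CPM) and of Cinnamon (42.7 CPM), were close to vehicle. The other libraries of these extracts read 67.2 to 77.8 CPM. EGLN3, a prolyl hydroxylase that marks hypoxia-inducible factors for degradation, was scarce at 0.495, 0.598 and 0.634 CPM in vehicle and 0.712, 0.990 and 1.48 CPM in the extracts (0.88 ± 0.21). In all 4 genes the extract libraries lay above the vehicle libraries without overlap.

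Over all genes tested 15.5% were called higher and 16.8% lower, the shares to set beside each list below. The lists were chosen with earlier results of these data known, so their counts are not independent of these libraries. Of the 25 hypoxia targets, 17 were called higher and 0 lower, with a median log2 difference of 0.40. In 13 of them all 18 low-dose libraries were above vehicle (5.97% of all genes), and 12 were called higher in each extract (2.69% of all genes). The other called members rose between 0.30 (INSIG2) and 0.75 (PFKFB4) and included VEGFA (0.40), an angiogenic growth factor, and BNIP3 (0.41), a receptor for mitophagy. The 8 members that did not pass the test ran from −0.10 (CA12) to 0.18 (KDM4B) and included the glucose transporter SLC2A1 (0.03) and ADM (0.03). BHLHE40, a clock and hypoxia-related repressor, was measured at 35.8, 40.7 and 33.9 CPM in vehicle and 62.0, 67.4 and 82.4 CPM with extract (0.89 ± 0.06). PLIN2, the lipid droplet coat protein, stood at 185, 193 and 187 CPM against 235, 283 and 318 CPM (0.58 ± 0.06). Neither gene's groups overlapped.

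Glycolysis rose in part. Of 20 glycolytic genes, 8 were called higher and 0 lower, but the list median was 0.01. PDK1, which diverts pyruvate from the mitochondria, went from 32.9, 31.2 and 32.5 CPM to 39.9, 52.1 and 56.2 CPM (0.67 ± 0.08). ALDOC (0.39), HK2 (0.35) and LDHA (0.27) were the next largest called members. LDHA, a lactate dehydrogenase subunit, read 1325, 1269 and 1257 CPM in vehicle and 1315, 1565 and 1682 CPM (lowest, median and highest) with extract, so that the groups overlapped. PGK1 (0.01) and ENO1 (0.01) did not pass the test.

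**Figure D1:**
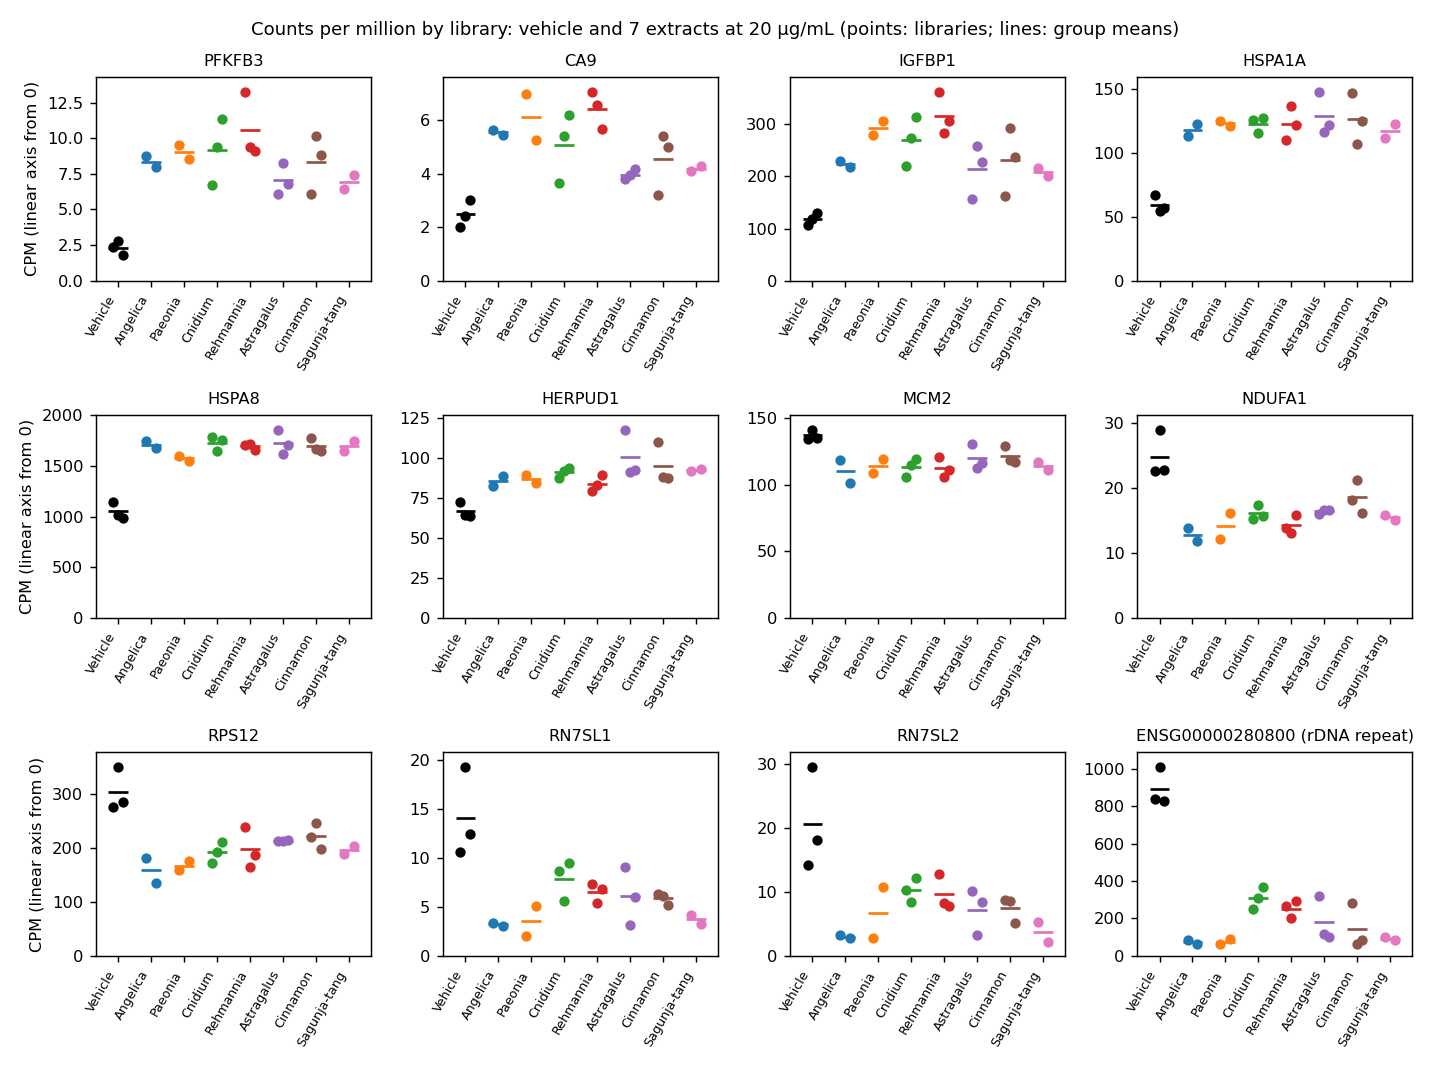
CPM (linear axes from 0) of 12 genes in each of the 3 vehicle libraries (black) and the 18 libraries of 7 extracts at 20 µg/mL, with lines at the group means. For PFKFB3 every extract library is at 6.06 CPM or more and no vehicle library is above 2.78; for ENSG00000280800 every extract library is at 370 CPM or less and no vehicle library is under 827.

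Of the 20 genes of the cytosolic heat shock list 13 were called higher and 0 lower, several of them of the HSP70 family. HSPA1A, the inducible HSP70, read 67.3, 54.5 and 56.9 CPM in vehicle and 107, 123 and 148 CPM (lowest, median and highest) at the low dose, a log2 difference of 1.05 ± 0.08 (adjusted p = 8.09e-13). The 7 extracts ranged from 0.98 to 1.11. HSPA8, the constitutive and far more abundant HSP70, went from 1143, 1018 and 992 CPM to 1549, 1690 and 1855 CPM, a log2 difference of 0.68 ± 0.04 (adjusted p = 3.7e-16). Both genes had all extract libraries above all vehicle libraries. DNAJB4, an HSP40 co-chaperone, rose by 0.64 ± 0.07 and HSPA1B, a near-identical neighbour of HSPA1A whose reads can be split with it, by 0.57 ± 0.11. The list median was 0.23, and in 12 genes all low-dose libraries lay above vehicle (5.97% of all genes). Members that did not pass the test included HSP90AB1 (−0.03), DNAJB1 (0.07) and HSPD1 (−0.04), which is a mitochondrial chaperonin despite the name of the list.

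ER chaperones moved the same way with smaller differences: 16 of 22 were called higher and 2 lower, with a median of 0.15. HERPUD1, which takes part in ER-associated degradation, stood at 72.2, 64.3 and 63.6 CPM in vehicle and at 79.6, 89.4 and 118 CPM with extract (0.44 ± 0.08). The ubiquitin ligase of that pathway, SYVN1, went from 68.3, 66.6 and 68.3 CPM to 74.6, 89.3 and 99.0 CPM (0.41 ± 0.06), and the co-chaperone DNAJB11 from 119, 113 and 117 CPM to 136, 147 and 156 CPM (0.33 ± 0.03). HSPA5, the main ER chaperone, rose by 0.15 ± 0.03, from 947, 928 and 980 CPM to 1014, 1043 and 1164 CPM. None of these 4 genes overlapped between groups. SEC61B (−0.26) and EDEM1 (−0.22) were the 2 members called lower. Among 24 ATF4 targets, which serve amino acid supply and redox balance, 7 were higher and 6 lower, against 15.5% and 16.8% over all genes. CEBPB (0.56) and STC2 (0.38) rose, SLC3A2 fell by 0.38, and ASNS, asparagine synthetase, did not pass the test (0.04, adjusted p = 0.537).

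**Figure D2:**
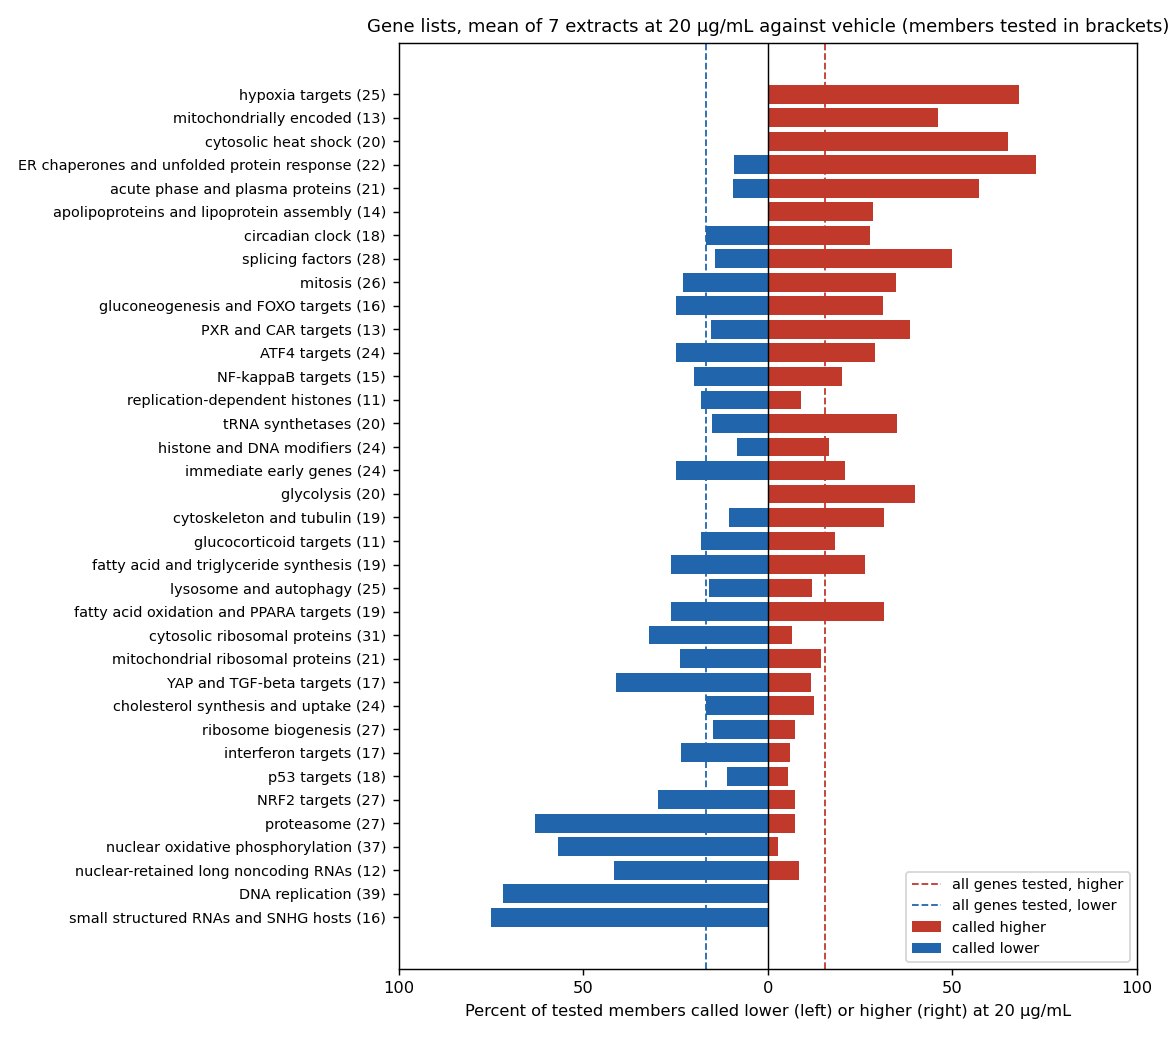
Percent of the tested members of each gene list called lower (left, blue) or higher (right, red) in the mean of the 7 extracts at 20 µg/mL against vehicle, ordered by the list median; dashed lines mark the shares over all genes tested (15.5% higher, 16.8% lower). The hypoxia list has 17 of 25 members higher and the DNA replication list 28 of 39 lower.

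Several secreted and signalling genes were among the 12 largest rises of protein-coding genes with at least 5 CPM in 1 group and no overlap between groups. IGFBP1, the insulin-like growth factor binding protein that the liver releases in fasting, went from 106, 118 and 130 CPM to 156, 247 and 361 CPM (1.07 ± 0.14). SOCS1, an inhibitor of cytokine receptor signalling, read 3.25, 4.01 and 4.83 CPM and then 6.64, 8.51 and 9.88 CPM (1.05 ± 0.09). Both were separated from vehicle in every library. TMCC1, an ER membrane protein, rose 2.30-fold, from 26.3, 25.7 and 28.5 CPM to 45.2, 63.4 and 72.6 CPM (1.20 ± 0.09, adjusted p = 3.89e-13). TUBB1 (1.41), a tubulin, PPP2R2C (1.12), a phosphatase subunit,, FAM13A (1.01) and FILIP1L (1.01) were also among them, each called higher in all 7 extracts. DEPP1 (0.82), BCL6 (0.47) and PCK1 (0.42), genes of the fasting response, were called higher too. They belong to a list of 16 gluconeogenesis and FOXO targets of which 5 were higher and 4 lower, against 15.5% and 16.8% over all genes.

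Genes for secreted plasma proteins were mostly higher by small amounts. Of 21 tested, 12 were called higher and 2 lower, with a median of 0.13. PLG, plasminogen, went from 65.1, 64.7 and 71.3 CPM to 76.8, 87.9 and 97.3 CPM (0.39 ± 0.05), without overlap. SERPINA1 (0.36) and TTR (0.32) rose with overlap between groups, and HPX, the heme carrier, fell by 0.33 without overlap. ALB, albumin, was measured at 10971, 11115 and 11603 CPM in vehicle and 10154, 11027 and 12643 CPM in the extracts and did not pass the test (−0.01 ± 0.06, adjusted p = 0.932). Without replicate 2 or replicate 3 of vehicle the number called higher was 8. HAMP, the iron hormone hepcidin, was low throughout, at 6.22, 7.03 and 6.66 CPM in vehicle and 2.01, 4.32 and 5.31 CPM at the low dose, and fell by 0.77 ± 0.10.

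Most DNA replication genes fell. Of 39 replication genes 28 were called lower and 0 higher (median −0.20). In 16 every extract library lay below every vehicle library (5.75% of all genes). MCM2, a subunit of the replicative helicase, went from 134, 141 and 135 CPM to 102, 117 and 131 CPM, a log2 difference of −0.25 ± 0.05 (adjusted p = 2.79e-04). GINS4 of the same helicase complex fell by 0.44, the transcription factor E2F1 by 0.42, UHRF1 by 0.33 and the licensing factor CDT1 by 0.32. TYMS (0.00) and RRM2 (−0.03), which serve nucleotide supply, did not pass the test. Of 26 mitosis genes 9 were called higher and 6 lower, against 15.5% and 16.8% over all genes. ANLN (0.32), TTK (0.27) and TPX2 (0.25) rose and CCNB1 fell by 0.26. CDKN1A, the p53-regulated inhibitor of cyclin-dependent kinases, read 130, 116 and 110 CPM in vehicle and 91.4, 111 and 137 CPM with extract and did not pass the test (−0.09, adjusted p = 0.282).

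Genes of the respiratory chain lie in the nucleus and in the mitochondrial genome. Of 37 nuclear genes of oxidative phosphorylation 21 were called lower and 1 higher (median −0.16). NDUFA1, a small subunit of complex I, stood at 22.7, 29 and 22.8 CPM in vehicle and at 11.9, 16.0 and 21.3 CPM in the extracts (−0.70 ± 0.14). UQCRQ of complex III fell by 0.56 and NDUFB2 of complex I by 0.44. CYC1, cytochrome c1 of complex III, was the member called higher, from 93.5, 96.0 and 96.6 CPM to 106, 137 and 157 CPM (0.51 ± 0.07). All 4 were without overlap. Leaving out vehicle replicate 2 left 13 nuclear genes lower.

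Of 13 protein genes in the mitochondrial genome 6 were called higher and 0 lower, with a median of 0.34. In 0 of them were the groups separated, as for MT-CO1, which read 19772, 19152 and 21432 CPM in vehicle and 17633, 26799 and 35737 CPM with extract (0.43 ± 0.12). This list rested on single libraries: 1 member was called without vehicle replicate 1 or 2, and 10 without Rehmannia replicate 1. The share of all counts on mitochondrially encoded genes was 14.2% ± 0.933 (SD, n = 3) in vehicle and 16.5% ± 2.45 (SD, n = 18) at the low dose. This difference did not pass an exact permutation test (two-sided p = 0.137), which does not show the shares to be equal.

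The 20S core and cap of the proteasome, which degrades ubiquitin-tagged protein, had 17 of 27 genes called lower and 2 higher (median −0.15). PSMA7 went from 132, 156 and 145 CPM to 85.7, 115 and 131 CPM (−0.38 ± 0.08), and PSMB6 and PSMA2 each fell by 0.30. The count was 9 without vehicle replicate 1 and 7 without replicate 2. Among 31 cytosolic ribosomal protein genes 10 were lower and 2 higher, against 16.8% and 15.5% over all genes. RPS12 had the largest fall of the list, from 277, 350 and 286 CPM to 136, 197 and 248 CPM (−0.67 ± 0.10), with RPLP1 (−0.59) and RPLP2 (−0.38) next. RPS24 rose (0.37). Of 28 splicing factors, 14 were called higher, led by PNISR (0.47), TRA2A (0.46) and SRSF10 (0.36), and 4 lower.

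Targets of NRF2, the transcription factor that answers electrophiles and oxidants, were lower more often than higher. Of 27 tested, 2 were called higher and 8 lower (median −0.07), against 15.5% and 16.8% over all genes. The peroxidase PRDX1 went from 404, 422 and 406 CPM to 244, 315 and 372 CPM (−0.44 ± 0.07), and TXNRD1 (−0.35), GSR (−0.30) and SRXN1 (−0.26), which regenerate reduced thiols, were also called lower. HMOX1, heme oxygenase, read 70.9, 62.5 and 65.1 CPM in vehicle and 62.3, 66.4 and 73.2 CPM with extract and did not pass the test (0.02, adjusted p = 0.782). The fatty acid thioesterases ACOT1 and ACOT2, close paralogs, fell by 0.50 and 0.55, in a list of 19 fatty acid oxidation genes with 6 called higher and 5 lower. The YAP and TGF-beta targets AMOTL2 and THBS1 fell by 0.41 and 0.36, in a list of 17 with 2 higher and 7 lower. PPARGC1B (−0.79), a coactivator of mitochondrial gene expression, ASB13 (−0.74), a ubiquitin ligase subunit, and the repressor FOXK1 (−0.72) had, with HAMP, the largest falls among protein-coding genes of at least 5 CPM in 1 group whose groups did not overlap. FOXK1 went from 33.9, 35.5 and 36.9 CPM to 19.0, 21.1 and 28.3 CPM. The other largest falls were CCDC144NL (−0.70), the phosphatase PTP4A3 (−0.67), PLD6 (−0.67), the calcium-binding S100A6 (−0.64), ANAPC11 (−0.63) and TIMM29 (−0.62). From PPARGC1B to TIMM29, all 18 extract libraries lay below vehicle in each gene named.

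Small structured RNAs, most of which carry no poly(A) tail, were lower. RN7SL1 and RN7SL2 both encode the 7SL RNA of the signal recognition particle, which directs secretory proteins to the ER. The copies are 98.7% identical, so reads from one can be assigned to the other and their values are not independent. RN7SL1 stood at 10.6, 19.2 and 12.4 CPM in vehicle and 2.01, 5.45 and 9.45 CPM at the low dose (−1.50 ± 0.19, adjusted p = 1.71e-07). RN7SL2 read 14.2, 29.4 and 18.1 CPM and then 2.15, 8.29 and 12.7 CPM (−1.71 ± 0.25). Vehicle replicate 2 was the highest library for both, and no extract library reached the lowest vehicle library. RN7SL3 (−1.61), RPPH1 (−1.78), the RNA of ribonuclease P, and RMRP (−3), the RNA of ribonuclease MRP, were called lower at under 2 CPM. RMRP had 0.460, 0.838 and 0.564 CPM in vehicle and a median of 0.0964 CPM with extract, and its lowest extract library was at 0. Of 16 small structured RNAs and host genes of small nucleolar RNAs 12 were called lower and 0 higher, against 16.8% lower over all genes. The nuclear RNA MALAT1 fell by 0.41, from 413, 395 and 433 CPM to 271, 304 and 364 CPM.

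Large falls were also found for 3 abundant identifiers without a symbol, singled out after their values were seen. ENSG00000280800, ENSG00000280614 and ENSG00000281181 are annotated as 923-base long intergenic RNAs on chromosome 21 (GENCODE 29: 8210384 to 8211306, 8393419 to 8394341 and 8437629 to 8438551, minus strand). Their sequences differ at 0 positions, and they end 1265, 1265 and 1271 bases before a copy of the 5.8S ribosomal RNA gene RNA5-8SN2 on the plus strand, which places them in ribosomal DNA repeats. ENSG00000280800 read 841, 1009 and 827 CPM in vehicle and 62.9, 111 and 370 CPM (lowest, median and highest) with extract, a log2 difference of −2.67 ± 0.39 (adjusted p = 1.48e-06). ENSG00000280614 and ENSG00000281181 had −2.71 and −2.69, with the same lowest, median and highest low-dose values, and the 3 cannot be counted as separate results. The groups did not overlap, and the 7 extracts ranged from −3.57 to −1.52 for ENSG00000280800. This range does not show the spread within extracts. In replicate order, ENSG00000280800 read 320, 118 and 102 CPM in Astragalus and 284, 63.3 and 86.6 CPM in Cinnamon. Cnidium and Rehmannia libraries lay between 201 and 370 CPM, and those of Angelica, Paeonia and Sagunja-tang between 62.9 and 103 CPM. In Astragalus and in Cinnamon the first library listed lay between 201 and 370 CPM and the others lay below. Libraries of the same extract thus fell on both sides of this split. The high libraries of Astragalus and Cinnamon share a sample code prefix and a replicate number. Whether the split follows the sample code was not tested. The library kit was directional, and the strand setting of the counting is not given in the sources used here. Together the 3 made up 0.287% ± 0.0353 (SD, n = 3) of a vehicle library and 0.0526% ± 0.0329 (SD, n = 18) of a low-dose library. Nuclear genes that are not protein coding made up 1.85% ± 0.0508 and 1.59% ± 0.0457, and identifiers without a symbol 0.766% ± 0.0410 and 0.511% ± 0.0370. These 3 identifiers carry most of both differences: without them the first share was 1.56% ± 0.0233 and 1.54% ± 0.0374 (exact permutation test over 1330 regroupings, two-sided p = 0.314) and the second 0.479% ± 0.00594 and 0.458% ± 0.0128 (p = 0.012). The part of these identifiers' levels in the gene-level results was not tested.

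The 2480 long noncoding RNAs tested had 154 called higher (6.21%) and 273 lower (11%). Among other genes that do not code for protein, pseudogenes can take reads from the parent gene. RPL7AP6 fell by 1.14 and its parent RPL7A by 0.30. ACSL3P1 rose by 0.86 and ACSL3 by 0.36. HNRNPA3P6 rose by 0.76, while HNRNPA3 did not pass the test (0.09, adjusted p = 0.284), and NCAPD2P1 rose by 0.70, while NCAPD2 did not (−0.04, adjusted p = 0.349). The parents were looked at after these values were seen. SNHG19 (−0.80) and MVP-DT (−0.76) fell and OLMALINC rose (0.64). ENSG00000240801 lies within the span of the growth factor gene IGF2, on the same strand (GENCODE 29, chromosome 11: 2129121 to 2129964). It fell by 1.17, from 77.8, 109 and 109 CPM to 25.0, 45.2 and 72.8 CPM, while IGF2 did not pass the test (0.13, adjusted p = 0.239). This identifier too was singled out after its values were seen.

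The shared difference was set against exon length and GC content. The median log2 difference ran from −0.08 in the shortest eighth of genes (75 to 1454 bases of exon) to 0.02 in the longest. In the shortest eighth 12.2% were called lower and 6.41% higher. Along GC content it went from 0.05 in the lowest eighth to −0.06 in the sixth. The slope of log2 CPM on exon length differed by 0.019 per doubling between the groups (exact permutation test, two-sided p = 0.051, adjusted p = 0.076), and by 0.0087 without vehicle replicate 2 (p = 0.40). The slope on GC content differed by −0.022 per 10 percentage points (exact permutation test, p = 0.157), and by −0.0066 without that library (p = 0.711). With an offset for these trends 5538 genes were called, of which 4827 were also called without it. The hypoxia list (17 of 25 higher), the heat shock list (13 of 20) and the replication list (28 of 39 lower) kept the same counts. The mitochondrially encoded list went from 6 to 12 higher, proteasome genes from 17 to 13 lower, NRF2 targets from 2 to 5 higher and nuclear oxidative phosphorylation genes from 1 to 3 higher.

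**Figure D3:**
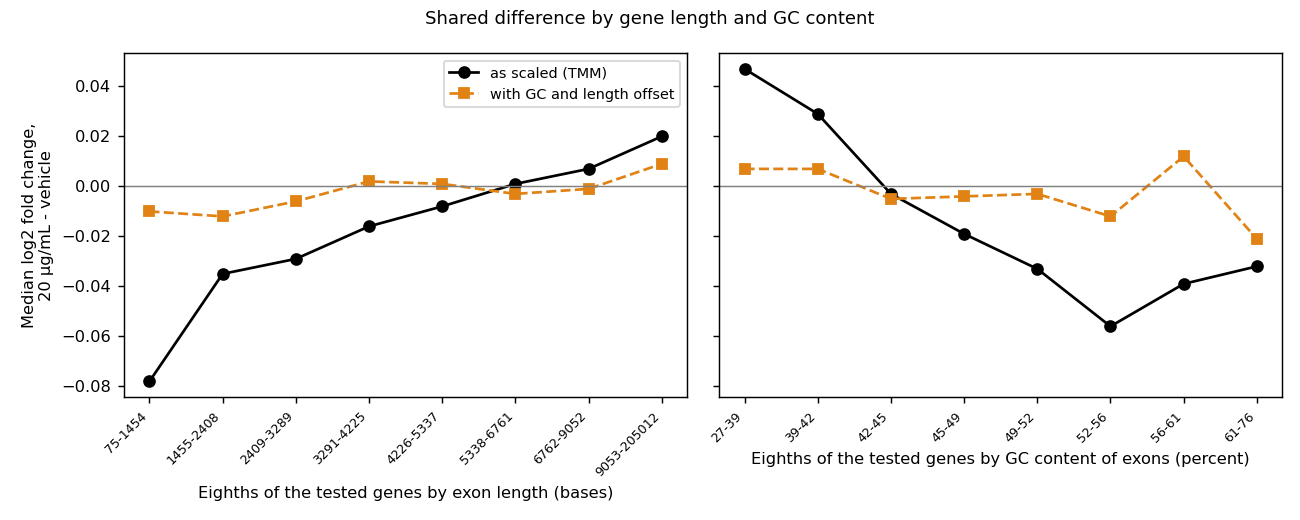
Median log2 difference (20 µg/mL minus vehicle) in eighths of the tested genes by exon length (left) and exon GC content (right), as scaled and with an offset for each library's GC and length trend. Without the offset the median runs from −0.08 in the shortest eighth to 0.02 in the longest.

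Differences among the extracts were tested next. A test was run of any difference among the 7 group means, in which vehicle is not compared. It called 10 of 16692 genes (0.0599%), and 1941 (11.6%) had an unadjusted p under 0.05. The count was 232 with DESeq2, 1257 with no filter on low counts, and 3 to 37 with 1 library left out. A gene that misses this test has not been shown to be equal in the 7 extracts. Between extracts of unlike code prefix, a difference between herbs cannot be told apart from one between prefixes. Scaling and spread came from all 60 libraries. Median differences of the hypoxia list ran from 0.31 in Astragalus to 0.47 in Cnidium and Rehmannia, and those of the heat shock list from 0.17 to 0.26. The replication list ran from −0.27 in Paeonia to −0.14 in Cinnamon. Mitochondrially encoded genes ran from 0.10 in Cinnamon to 0.71 in Angelica. A single gene, 1 of 16692 (0.00599%), was called higher in one extract and lower in another: CYP1A1, the xenobiotic-metabolising target of the aryl hydrocarbon receptor. It stood at 11.8, 11.6 and 11.7 CPM in vehicle, at a mean of 35.1 CPM in Angelica, and between 8.92 CPM (Cnidium) and 13.8 CPM (Sagunja-tang) in the other extracts. Its shared difference did not pass the test (0.12, adjusted p = 0.316).

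**Figure D4:**
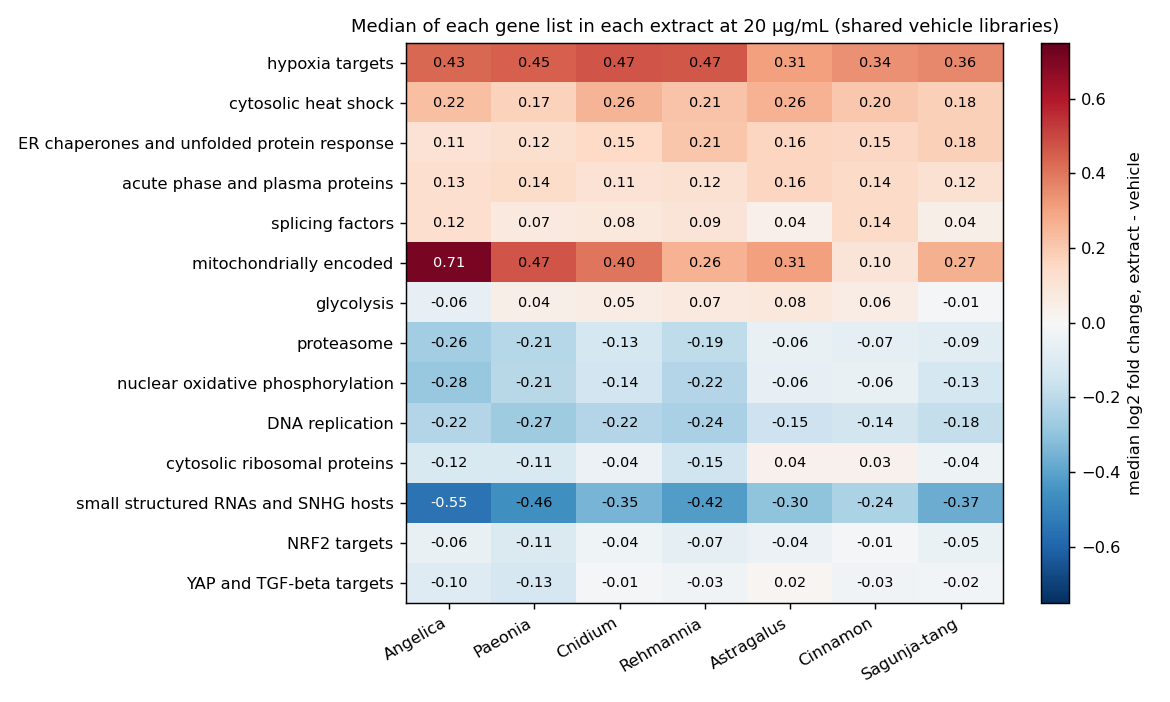
Median log2 difference from vehicle of 14 gene lists (rows) in each of the 7 extracts at 20 µg/mL (columns); colours run from −0.75 (blue) to 0.75 (red), and all columns share the 3 vehicle libraries. The hypoxia row is positive in every extract (0.31 to 0.47) and the row of small structured RNAs negative in every extract (−0.55 to −0.24).

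Between doses, which needs no vehicle library, the groups of genes parted. From 20 to 100 µg/mL 590 genes rose (3.53%) and 829 fell (4.97%), and from 20 to 500 µg/mL 4396 rose (26.3%) and 4535 fell (27.2%). Hypoxia targets went on rising: 15 of 25 were called higher at 100 µg/mL than at 20 and 23 at 500, and 0 lower at either step. PFKFB3 rose by a further 0.50 to both doses, and IGFBP1 by 0.34 and 0.83. Glycolytic genes followed, with 14 and 17 of 20 higher and 0 and 2 lower.

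Chaperones did not continue. Of the 20 heat shock genes 1 rose from 20 to 100 µg/mL and 0 fell, and to 500 µg/mL 4 rose and 9 fell. HSPA1A had a step of −0.09 (adjusted p = 0.16) and HSPA8 of 0.01 (adjusted p = 0.92) to 100 µg/mL. DNA replication genes stayed near their low-dose level at 100 µg/mL, with 1 higher and 2 lower, and 36 of 39 fell at 500 µg/mL. The small structured RNAs and host genes had 1 higher and 2 lower of 16 at 100 µg/mL, where RN7SL1 had a step of −0.07 (adjusted p = 0.82).

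Other lists turned back with dose. Nuclear oxidative phosphorylation genes, lower than vehicle at 20 µg/mL, had 26 of 37 rising and 0 falling from 20 to 500 µg/mL, and proteasome genes 23 of 27 and 0. NRF2 targets had 20 of 27 higher at 100 µg/mL than at 20 and 26 higher and 1 lower at 500. AKR1B10, an aldo-keto reductase of that list, fell by 0.29 at 20 µg/mL and then rose by 0.41 and 1.69. The mitosis list had 26 of 26 lower at 500 than at 20 µg/mL. Without Astragalus and Paeonia the steps to 100 and 500 µg/mL called 320 and 4699 genes. The list counts for these steps were made only with both of those extracts included.

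**Figure D5:**
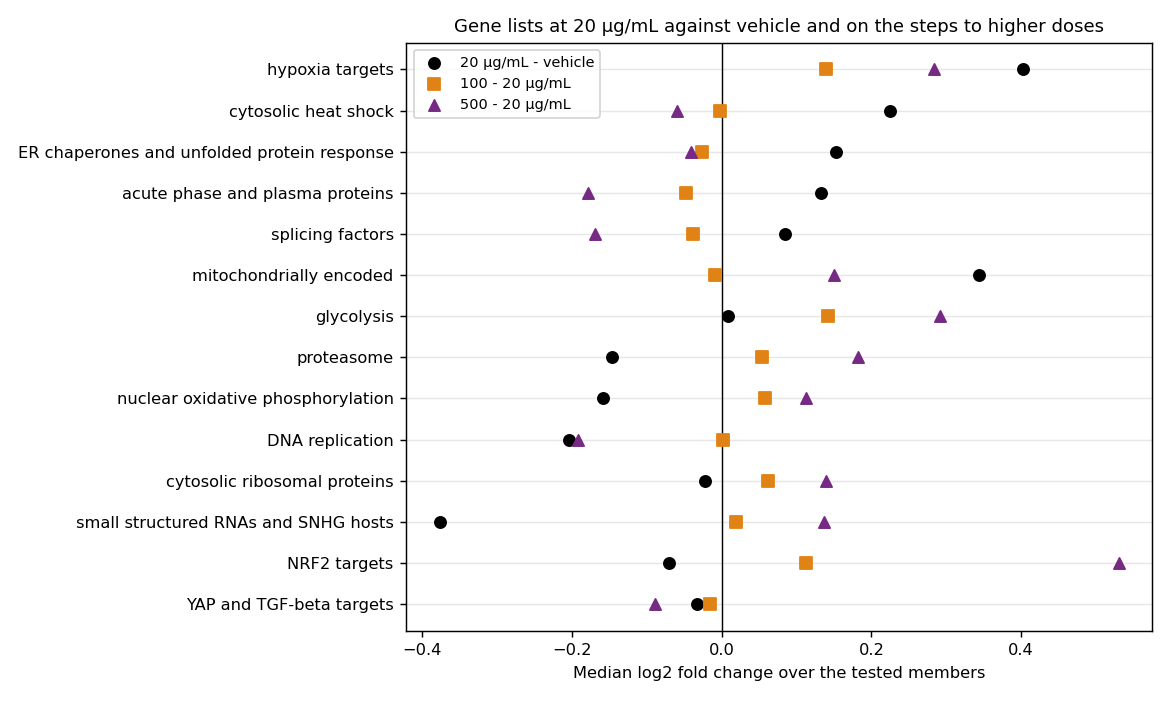
Median log2 difference of 14 gene lists for 20 µg/mL minus vehicle (circles), 100 minus 20 µg/mL (squares) and 500 minus 20 µg/mL (triangles). The hypoxia list is to the right of 0 in all 3, while NRF2 targets are at −0.07 in the first and at 0.53 in the last.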

How the data were processed

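Total RNA of HepG2 cells was sequenced in 100 bp paired reads, per the labels' protocols. The authors deposited 1 table of RSEM expected counts per gene, with no normalization. FastQC 0.11.9, Trim Galore 0.6.5, STAR 2.7.3a, RSEM 1.3.3 and the build GRCh38 are named per the submitters' processing notes; the annotation release is not given in the sources used here. Of 270 sample columns 60 were used and 210 were not. Expected counts, of which 8.21% were not whole, were rounded. Symbols were matched for 41347 of 60675 identifiers (99.47% of counts).

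All 25 groups were fitted together with edgeR 4.0.16 (R 4.3.3): filtering by expression (16692 genes), TMM scaling, quasi-likelihood test, Benjamini-Hochberg adjustment over all genes, 35 residual degrees of freedom. CPM values use TMM. Library shares were compared by exact permutation. The fit was tested on simulated data. limma 3.58.1 and DESeq2 1.42.0 were alternatives. No replicate pair was identical (chi-square per degree of freedom 4.8 to 63.2 over 18 pairs). Residuals of each vehicle library were set against the mean residual of the low-dose libraries with the same number. They did not deviate together (correlations 0.09, −0.01 and 0.00), so numbers were not used as pairs. That mean runs over all code prefixes, so it cannot show a deviation shared within a prefix. Replicate 1 of Astragalus and of Cinnamon did move together in some genes.

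The members and lists were chosen with earlier results of these data known. Genes were named by rule: the 12 largest rises and falls among protein-coding genes and 5 among others (called, mean of at least 5 CPM in 1 arm, no overlap between groups); up to 4 called members per list; called genes that differed between extracts; up to 8 that moved with dose; and a fixed panel. List counts without single libraries were added after seeing the data. A result that met the naming rule is not reported here.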

Additional observations from a re-analysis of the deposited data

Results flagged for a closer look

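A test of any difference among the 7 extracts at 20 µg/mL (edgeR's quasi-likelihood test, Benjamini-Hochberg adjustment) passed for 10 genes. CYP1A1 had an adjusted p of 3.2e-16, with 34.9 and 35.3 CPM in Angelica and means of 8.92 to 13.8 CPM elsewhere. HAMP, hepcidin, had 0.0037, with a mean of 2.20 CPM in Paeonia and 5.11 CPM in Angelica. ZACN, a zinc-activated channel, also had 0.0037. It read 14.9 CPM in Rehmannia replicate 1 but 0.0755 and 0 CPM in the other Rehmannia libraries, and 3.57, 6.97 and 0.0705 CPM in vehicle, so that single libraries set its value. STK36 had 0.02, with a mean of 38.4 CPM in Astragalus and 43.9 to 46.9 CPM in the others. BMF, UQCC2 and SNHG5 each had 0.038 and NDUFB3 had 0.039. CLASP1 and GSTA1 each had 0.047.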

How the results depend on the processing

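The 5392 genes called in the shared difference became 2972 with only the extracts of code prefix 13 and 2184 with only that of prefix 14; other scalings, filters and tools stayed within 1.5 times, among them DESeq2 (4908), limma-voom (5531) and a replicate block (5373). The 10 genes that differed among extracts became 1257 without a filter on low counts and 232 with DESeq2. With 21 libraries only, with voom and with the replicate block there were 5. Vehicle libraries did not deviate together with the mean of the low-dose libraries of the same number. Sharing within a code prefix was not tested, although replicate 1 of Astragalus and of Cinnamon moved together in some genes. Without Astragalus and Paeonia the dose steps called 320 and 4699 genes instead of 1419 and 8931. CYP1A1 turned to −0.31 with prefix 12 only. Leaving out 1 library at a time gave 3410 to 5731 for the shared difference (lowest without Vehicle replicate 2) and 3 to 37 among extracts. Genes called in each of the 7 numbered 194 to 521 higher and 136 to 394 lower. Single extracts gave 1252 to 4116 for Angelica, 657 to 2928 for Paeonia, 1473 to 2664 for Cnidium and 1893 to 3505 for Rehmannia. They gave 1176 to 1734 for Astragalus, 977 to 1428 for Cinnamon and 474 to 1759 for Sagunja-tang. The 997 genes above and 960 below vehicle in every library became 1001 to 1377 and 967 to 1423. That rule is eased by leaving out a library, so these ranges do not test it. Without the 3 identifiers in ribosomal DNA, left out after seeing the data, the share of genes that are not protein coding differed by −0.0225 percentage points, since those identifiers carried most of the difference. The cause of the other changes was not tested.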

Other observations

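RBM3 and CIRBP, RNA-binding proteins known as cold-inducible, were 2 of the 4 splicing-list members called lower. RBM3 fell by 0.36 with no overlap between groups. CIRBP, chosen after its values were seen, read 65.6, 78.7 and 71.6 CPM in vehicle and 53.8, 60.2 and 68.4 CPM (lowest, median and highest) with extract, and fell by 0.25 with overlap.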
